A study of Mus musculus with 6 samples.

Results

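The genes described here encode 35 tRNA synthetases, of which 20 act in the cytosol and 15 in mitochondria. They were taken from a fixed list of gene symbols and not by a cutoff on measured values, but the list was chosen with earlier results of these data known. Lars2, the mitochondrial leucine enzyme, was left out by the rule. Gars1 and Kars1 were counted as cytosolic, although both are known to supply the mitochondrial enzyme as well, from alternative starts or splice forms of the same gene. Among 36137 genes matched in the libraries, 18506 had at least 10 counts in total and were tested, and all 35 enzymes were among them.

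The data were 6 RNA-seq libraries from mouse bone marrow-derived macrophages (BMDMs), 3 WT and 3 Drp1KO. Drp1KO cells came from LysM-Cre+/- Drp1 fl/fl mice, which lose dynamin-related protein 1 (DRP1, encoded by Dnm1l), the GTPase that divides mitochondria, in cells that use the lysozyme M promoter. WT cells came from LysM-Cre+/- Drp1+/+ mice, so both groups carried the Cre transgene and their stated genotypes differed in the floxed allele. The methods give a range of adult ages for the mice of all experiments, and no age is given for a single library. All cells had spent 7 days in culture with L929-conditioned medium and were then kept for 8 h without serum at 2.1% oxygen, the in vitro ischemia called hypoxia serum starvation (HSS), so neither group shows cells before HSS. The methods describe pooling marrow from 2 mice, and the labels call the libraries biological replicates without saying whether each came from its own pool, so p-values below measure the spread between these libraries.

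A tRNA synthetase joins 1 amino acid to the tRNAs that carry its anticodons, and the loaded tRNA then brings that amino acid to the ribosome. Cytosolic and mitochondrial protein synthesis use separate sets of these enzymes, and the mitochondrial set is encoded in the nucleus, made in the cytosol and imported. Many of the cytosolic genes are known targets of ATF4, the transcription factor made when eIF2α is phosphorylated in amino acid or mitochondrial stress, and Wars1, the cytosolic tryptophan enzyme, is known as an interferon-γ-induced gene.

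Library depth was 23389488 to 32231206 estimated counts over all genes. The targeted gene was checked first: Dnm1l was at 72.6 ± 2.61 CPM (counts scaled to library size) in WT and 61.9 ± 3.91 CPM in Drp1KO libraries (SD, n = 3 each). Its log2 fold change of -0.23 had an adjusted p of 0.248 in edgeR's quasi-likelihood test. The floxed exons are not given in the sources used here, so these whole-gene counts do not measure the deletion itself. Summed CPM of 8 macrophage markers was 13412 to 14811 in WT and 11993 to 14417 in Drp1KO libraries, most of it from Lyz2. Among these 8, Fcgr1 was higher (log2 fold change 1.34) and Csf1r and Mertk were lower (-0.52 each) in Drp1KO at an adjusted p under 0.05. The summed CPM of 10 neutrophil markers was 7.46 to 22.2 in WT and 21.2 to 49.3 in Drp1KO libraries, with Ly6g, Elane and Retnlg under the count minimum. All 7 tested markers were higher in Drp1KO, where 50.6% of all genes were. Past an adjusted p of 0.05 in edgeR were 0 of them, or 4 with the replicate number as a block, where 6.73% of all genes were called higher. At an unadjusted p under 0.05 were 4, beside 16.4% of all genes. Lymphocyte, fibroblast and dendritic cell markers summed to 9.02 CPM or less in every library, and 4 erythroid markers were at 0. The part of these marker differences in the values below was not tested.

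To compare the synthetases between genotypes, estimated counts were summed per gene and all genes were tested together with edgeR's quasi-likelihood test. Of the 20 cytosolic enzymes, 14 were higher and 6 lower in Drp1KO BMDMs, where 50.6% and 49.4% of all tested genes lay in these directions. Wars1 was the 1 enzyme past an adjusted p of 0.05, where 2.29% of all tested genes passed in the higher and 1.06% in the lower direction. The median log2 fold change of the cytosolic enzymes was 0.13, with a range of -0.42 to 0.60, against 0.0046 for all tested genes. Without Drp1KO library 1 that median was -0.015, and without WT library 1 it was 0.25, so it turned on single libraries. Of the 15 mitochondrial enzymes, 9 were higher and 6 lower, with a median of 0.04 and a range of -0.27 to 0.31. None of the mitochondrial enzymes passed in edgeR or DESeq2, and 0 had an unadjusted p under 0.05 in edgeR, where 16.4% of all tested genes did. Under the study's own criteria, a fold whose log2 is over 0.32 with an unadjusted p under 0.05, Wars1 was called higher and Iars1 lower, where 7.19% and 5.48% of all tested genes were called in these directions. With 20 enzymes, 1 call is close to such shares.

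**Figure D1:**
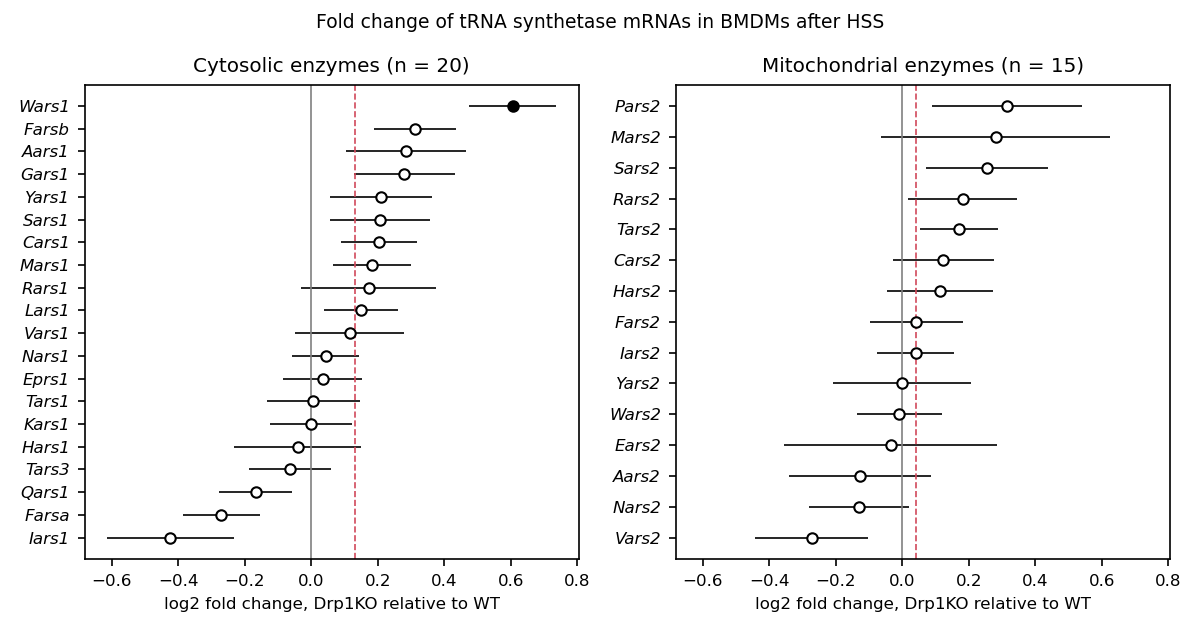
The plot shows the log2 fold change of each enzyme in Drp1KO relative to WT BMDMs on the horizontal axis, with its standard error as a bar. The filled point is Wars1 (adjusted p of 0.0357 in edgeR), open points did not pass an adjusted p of 0.05, and the dashed lines mark the medians of 0.13 for cytosolic and 0.04 for mitochondrial enzymes.

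The deviations of same-numbered libraries from their group means were positively correlated in all 3 pairs, so a fit with the replicate number as a block was run beside the main one. In it 4 cytosolic enzymes were called higher (Wars1, Aars1, Farsb and Gars1) and 1 lower (Iars1) at an adjusted p under 0.05, while 6.73% of all genes were called higher and 5.22% lower in that fit. Of the 20 cytosolic enzymes, 8 were higher in each of the 3 Drp1KO libraries than in the WT library of the same number (Aars1, Cars1, Farsb, Gars1, Sars1, Vars1, Wars1 and Yars1), a pattern found in 23.7% of all tested genes. Farsa, Qars1 and Tars3 were lower in all 3 pairs, a pattern found in 22.1% of all genes. Among the mitochondrial enzymes, 5 were higher (Hars2, Pars2, Rars2, Sars2 and Tars2) and 1 was lower (Vars2) in all 3 pairs.

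Wars1 loads tryptophan onto its tRNA in the cytosol (chr12:108825955-108860188, minus strand, GRCm39). Its level was 20.83, 16.19 and 16.05 CPM in the WT libraries and 28.96, 26.82 and 24.87 CPM in the Drp1KO libraries, numbered 1 to 3. Every Drp1KO library was above every WT library. The mean rose from 17.7 ± 2.72 to 26.9 ± 2.05 CPM (SD, n = 3 each). This gave a log2 fold change of 0.60 with a standard error of 0.132 and an adjusted p of 0.0357 in edgeR, or 0.00189 with the replicate block. The call rested on all libraries but WT library 1, since leaving out any of the other 5 gave log2 fold changes of 0.52 to 0.66 with adjusted p between 0.0576 and 0.208. In length-scaled counts, made from the deposited TPM, the log2 fold change was 0.53 with an adjusted p of 0.165 in edgeR. Of 12 other interferon-responsive genes, all 12 were higher in Drp1KO with a median log2 fold change of 1.11, where 50.6% of all genes were higher, and 7 passed an adjusted p of 0.05, beside 2.29% of all genes, among them Usp18, which removes ISG15 from proteins (log2 fold change 3.16). Within the WT group 8 of these 12 were highest in library 2 and 11 lowest in library 3, while Wars1 was highest in library 1 and close to equal in libraries 2 and 3. Within the Drp1KO group 10 of 12 were lowest in library 1, where Wars1 was highest.

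The mitochondrial tryptophan enzyme Wars2 stood at 9.06, 10.0 and 10.2 CPM in WT and 9.62, 9.81 and 9.72 CPM in Drp1KO libraries, and the groups overlapped. The log2 ratio of Wars1 to Wars2 CPM was 0.85 ± 0.308 in WT and 1.47 ± 0.118 in Drp1KO libraries (SD, n = 3 each). The ratios of the groups did not overlap, and the difference of 0.62 had an exact two-sided permutation p of 0.1, the smallest that 3 against 3 libraries allow, which is 0.64 after adjustment over the 16 ratios compared.

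**Figure D2:**
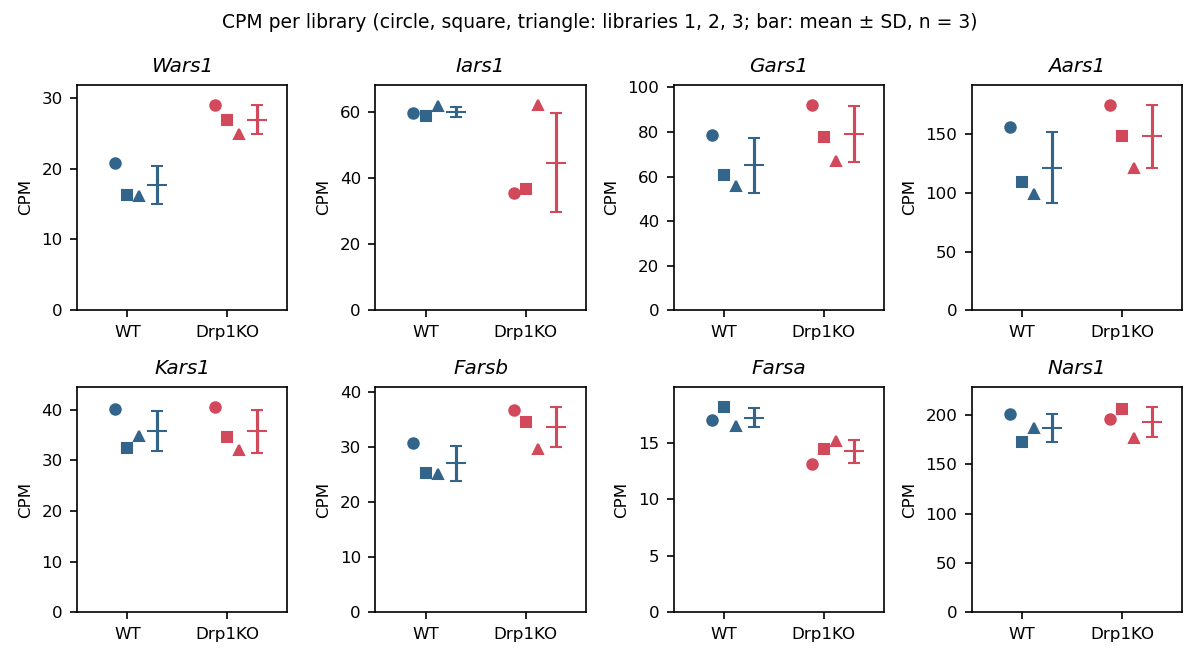
CPM is plotted for 8 cytosolic enzymes, with circles, squares and triangles for libraries 1, 2 and 3 of each genotype and a bar for the mean ± SD (n = 3). The 3 Drp1KO libraries of Wars1, at 24.9 to 29.0 CPM, lie above all WT libraries, and Iars1 in Drp1KO library 3 lies apart from Drp1KO libraries 1 and 2.

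Next, the enzymes of the multisynthetase complex were examined. In mammals a group of cytosolic synthetases is held together by the scaffold proteins AIMP1, AIMP2 and AIMP3 (the last encoded by Eef1e1), and 7 enzymes of this complex were on the list. Their median log2 fold change was 0.03, with 4 higher and 3 lower, against 0.20 for the 13 cytosolic enzymes outside the complex, of which 10 were higher and 3 lower. With 1 library left out these medians lay between -0.079 and 0.13 and between 0.049 and 0.29, and the contrast was not tested. Of the 3 scaffolds, Aimp1 was at 32.7, 27.0 and 30.3 CPM in WT and at 27.9, 25.2 and 17.2 CPM in Drp1KO libraries (log2 fold change -0.36, adjusted p of 0.328 in edgeR), and the groups overlapped. The other scaffolds had log2 fold changes of 0.23 (Aimp2) and 0.15 (Eef1e1), with adjusted p of 0.589 and 0.769.

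Iars1, the isoleucine enzyme of the complex (chr13:49835576-49887745, plus strand), had the lowest fold change of the list. It was at 59.8, 58.9 and 61.8 CPM in WT libraries, within 3 CPM of each other, and at 35.5, 36.6 and 62.2 CPM in Drp1KO libraries. Drp1KO libraries 1 and 2 were far below WT, while library 3 was above all WT libraries. The log2 fold change was -0.42 with a standard error of 0.190 and an adjusted p of 0.303 in edgeR, and the result turned on Drp1KO library 3: without it the log2 fold change was -0.73 with an adjusted p of 0.00802. With the replicate block it was -0.47 with an adjusted p of 0.0407, and in length-scaled counts it was -0.10 with an adjusted p of 0.929. One transcript, Iars1-205, held 97.4% to 100% of the Iars1 counts in every library. Iars1 shares 767 stretches of 31 bases with the pseudogene Gm4849, which had 7.1 to 26.3 counts per library.

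Kars1, the lysine enzyme of the complex, was at 40.1, 32.5 and 34.8 CPM in WT and 40.5, 34.6 and 32.1 CPM in Drp1KO libraries. The groups overlapped nearly in full, and Kars1 was the cytosolic enzyme nearest to no change (log2 fold change -0.0021, standard error 0.123, adjusted p of 0.998 in edgeR). Among its deposited transcripts, Kars1-201 has a coding sequence of 1785 bases over 14 exons, while Kars1-202 and Kars1-203 have a longer one of 1872 bases. Of the counts of these 3 transcripts, the long-coding forms made up 34.7%, 22.9% and 31.6% in WT and 23.1%, 34.2% and 35.5% in Drp1KO libraries. The shares of the groups overlapped.

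Outside the complex, Gars1, the glycine enzyme of both compartments (chr6:55014927-55061231, plus strand), was at 78.9, 60.6 and 55.6 CPM in WT and 92.1, 77.6 and 67.1 CPM in Drp1KO libraries. The groups overlapped, yet each Drp1KO library was above the WT library of its number. The log2 fold change was 0.28 with a standard error of 0.152 and an adjusted p of 0.415 in edgeR, or 0.0309 with the replicate block. The log2 fold change was 0.14 without Drp1KO library 1 and 0.44 without WT library 1. Nars1, the asparagine enzyme, had the highest level per length of the list, and at 202, 172 and 187 CPM in WT and 196, 206 and 176 CPM in Drp1KO libraries its groups overlapped (log2 fold change 0.04, standard error 0.101, adjusted p of 0.908 in edgeR).

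Aars1, Farsb and Farsa were singled out after their values were seen. Aars1, which loads alanine, was at 156, 109 and 99.5 CPM in WT and 175, 148 and 121 CPM in Drp1KO libraries, and the groups overlapped. Its log2 fold change was 0.28, with an adjusted p of 0.496 in edgeR and 0.0319 with the replicate block. It was 0.14 without Drp1KO library 1, 0.50 without WT library 1 and 0.45 in length-scaled counts.

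The cytosolic phenylalanine enzyme is a tetramer of α subunits encoded by Farsa and β subunits encoded by Farsb. Farsb was at 30.7, 25.3 and 25.2 CPM in WT and 36.7, 34.5 and 29.6 CPM in Drp1KO libraries (log2 fold change 0.31, standard error 0.125, adjusted p of 0.243 in edgeR, or 0.0384 with the replicate block). Farsa was at 17.0, 18.1 and 16.5 CPM in WT and 13.2, 14.5 and 15.1 CPM in Drp1KO libraries (log2 fold change -0.27, standard error 0.116, adjusted p of 0.278 in edgeR). The subunit mRNAs thus lay in opposite directions, with the Farsb groups overlapping and the Farsa groups not. The log2 ratio of Farsb to the mitochondrial Fars2 was 0.44 ± 0.0131 in WT and 0.71 ± 0.0615 in Drp1KO libraries (SD, n = 3 each). The difference of 0.27 had an exact two-sided permutation p of 0.1, which is 0.64 after adjustment over the 16 ratios compared.

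The cytosolic enzymes differed between libraries of the same genotype. Their mean log2(CPM + 0.5) was 5.74, 5.47 and 5.46 in WT and 5.78, 5.64 and 5.52 in Drp1KO libraries, so library 1 stood apart in WT, while the Drp1KO libraries were evenly spaced. WT library 1 was the highest of the WT libraries for 18 of 20, and Drp1KO library 1 was the highest of the Drp1KO libraries for 15 of 20, with 17 of 20 at their lowest in Drp1KO library 3. In all, 15 of the 20 cytosolic enzymes were highest in library 1 of both groups and 0 were lowest there, while 23.3% of all tested genes were highest and 24.9% lowest in library 1 of both. The mitochondrial enzymes did not share this order, with 2 of 15 highest and 5 of 15 lowest in library 1 of both groups. Because enzymes of a library share their cells and their depth, these counts describe the libraries and not 20 separate observations. With library 1 of both groups left out, an alternative added after seeing the data, the cytosolic median was 0.13 as before, Wars1 had a log2 fold change of 0.68 with an adjusted p of 0.00456 in edgeR, and 1 cytosolic and 0 mitochondrial enzymes were called.

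Of 9 genes of the eIF2α kinase arm, 5 were highest and 4 lowest in WT library 1, and 5 were highest and 2 lowest in Drp1KO library 1. Atf4 itself was at 206, 149 and 142 CPM in WT and at 303, 244 and 171 CPM in Drp1KO libraries, highest in library 1 of both groups, with a log2 fold change of 0.53, a standard error of 0.202 and an adjusted p of 0.218 in edgeR, or 0.00442 with the replicate block. Over the arm 5 genes were higher and 4 lower in Drp1KO. In edgeR 0 passed an adjusted p of 0.05, and 4 had an unadjusted p under 0.05, beside 16.4% of all genes. With the replicate block Atf4 and Eif2ak2 were called higher and Eif2ak3 lower, where 6.73% of all genes were called higher and 5.22% lower. Eif2ak2, which encodes the double-stranded RNA sensor PKR, had a log2 fold change of 0.55 (adjusted p of 0.104 in edgeR, 0.00569 with the block), and Eif2ak3, which encodes the endoplasmic reticulum kinase PERK, had -0.31 (0.124 and 0.0340). Gcn1, which encodes the partner of GCN2 at the ribosome, had -0.26 (adjusted p of 0.0599 with the block). Its groups did not overlap, as for 21.9% of all genes. Eif2ak4, which encodes the kinase GCN2 that senses uncharged tRNA, had a log2 fold change of -0.09 with an adjusted p of 0.767 in edgeR. Of 27 ATF4 targets that are not synthetases, 20 were highest in WT library 1 among WT and 21 in Drp1KO library 1 among Drp1KO libraries. In the comparison of genotypes 23 of these 27 were higher and 4 lower in Drp1KO, with a median log2 fold change of 0.49 that lay between 0.29 and 0.69 with 1 library left out. With the replicate block 14 of the 27 were called higher at an adjusted p under 0.05 in edgeR, where 6.73% of all genes were. Without it, 4 were called, all higher, beside 2.29% of all genes: Psat1 (1.02) and Phgdh (0.92) of serine synthesis, the asparagine synthetase Asns (0.84) and the pseudokinase Trib3 (1.01). The cytosolic synthetases had a median of 0.13, which lay between -0.015 and 0.25 with 1 library left out. Their contrast with these targets was not tested.

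**Figure D3:**
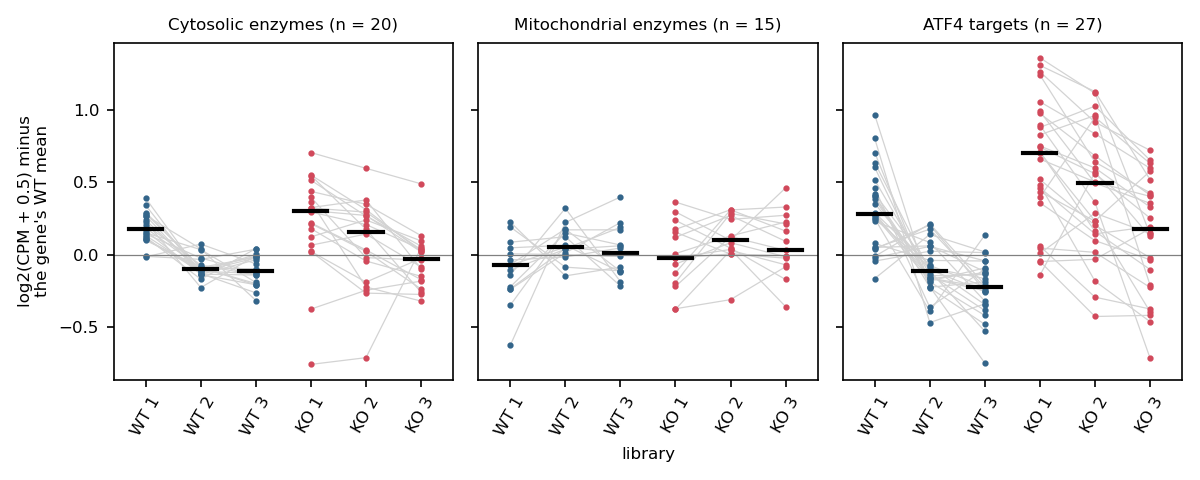
Each point is a gene's log2(CPM + 0.5) in 1 library minus its mean over the WT libraries, for the cytosolic enzymes, the mitochondrial enzymes and the ATF4 targets, with thin lines joining a gene's points within a genotype and thick bars at the medians. Library 1 is the highest WT library for 18 of 20 cytosolic enzymes and 20 of 27 ATF4 targets but for 3 of 15 mitochondrial enzymes.

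To relate this pattern to promoter sequence, windows from 250 bases before to 50 bases after the start were taken from RefSeq (GRCm38.p6, a different build from that of the gene positions above). Windows were used for 26 of the 35 enzymes, 13 of each class. The core of the C/EBP-ATF response element (CARE), to which ATF4 binds with a C/EBP partner, was searched as TGATGNAA on both strands. It was found in 5 of 13 cytosolic genes (Aars1, Gars1, Iars1, Tars1 and Yars1) and in 0 of 13 mitochondrial genes, and in 4.51% of all 27025 genes with a window. Aars1 held 2 matches, at -112 and +10 from the start. These 5 are shown because they are the members that carry the motif, each from 120 bases before to 20 bases after the start on the gene's strand, with capitals for the CARE core. In all but Yars1 the core lies on the other strand, so its reverse complement is in capitals.

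Aars1 (chr8:111033722-111033861, plus strand): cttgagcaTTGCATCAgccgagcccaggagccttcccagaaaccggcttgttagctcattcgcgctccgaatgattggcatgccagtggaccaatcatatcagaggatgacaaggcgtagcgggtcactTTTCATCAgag
Gars1 (chr6:55037881-55038020, plus strand): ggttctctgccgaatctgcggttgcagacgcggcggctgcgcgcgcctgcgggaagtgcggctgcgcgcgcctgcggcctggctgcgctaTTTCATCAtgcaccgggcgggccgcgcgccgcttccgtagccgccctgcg
Iars1 (chr13:49682010-49682149, plus strand): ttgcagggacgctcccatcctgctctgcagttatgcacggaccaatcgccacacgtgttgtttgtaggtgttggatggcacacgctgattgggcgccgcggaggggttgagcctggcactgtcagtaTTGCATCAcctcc
Tars1 (chr15:11399639-11399778, minus strand): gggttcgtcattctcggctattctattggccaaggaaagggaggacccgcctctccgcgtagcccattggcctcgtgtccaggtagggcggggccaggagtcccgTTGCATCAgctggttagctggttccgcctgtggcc
Yars1 (chr4:129189783-129189922, plus strand): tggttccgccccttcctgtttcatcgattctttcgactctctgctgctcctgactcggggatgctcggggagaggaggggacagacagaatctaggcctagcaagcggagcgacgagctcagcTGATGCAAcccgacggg

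The 5 enzymes with the motif had log2 fold changes from -0.42 (Iars1) to 0.28 (Aars1 and Gars1), with Tars1 at 0.0058 and Yars1 at 0.21, so carriers lay in both directions. The interferon-stimulated response element core was found in the Qars1 window alone (1 of 13 cytosolic and 0 of 13 mitochondrial genes, 3.99% of all genes). A match is a run of letters and not a measured binding site. Windows on chromosome 18, where Hars1, Lars1, Nars1 and Hars2 lie, were not used, while the share of all genes was counted over every chromosome. No window was matched for Cars1, Rars1, Vars1, Wars1 and Pars2.

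The mitochondrial enzymes were compared next, and none passed the test under any of the alternatives, with the lowest adjusted p at 0.280. Iars2, the mitochondrial isoleucine enzyme and the most abundant of the class, was at 96.4, 74.4 and 77.6 CPM in WT and 91.8, 82.6 and 81.0 CPM in Drp1KO libraries. The groups overlapped, with a log2 fold change of 0.04 and a standard error of 0.116 (adjusted p of 0.928 in edgeR), so a change of the size of Wars1 would lie more than 4 standard errors away. Iars2 shares 2124 stretches of 31 bases with its neighbour Rab3gap2, which had 5079.7 to 6823.7 counts per library.

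The groups did not overlap for 6 of the 35 enzymes, where 21.9% of all tested genes did not overlap. Among cytosolic enzymes these were Wars1 (higher) and Farsa (lower), and among mitochondrial enzymes Pars2, Sars2 and Tars2 (higher) and Vars2 (lower), beside 11.7% of all genes in the higher and 10.3% in the lower direction. The mitochondrial 4 were singled out after their values were seen. Vars2, the valine enzyme, was lower, at 4.83, 4.91 and 5.15 CPM in WT and 3.72, 3.91 and 4.66 CPM in Drp1KO libraries (log2 fold change -0.27, adjusted p of 0.492 in edgeR). Tars2, the threonine enzyme, was higher, at 13.4, 14.7 and 14.3 CPM in WT and 15.4, 17.1 and 15.1 CPM in Drp1KO libraries (log2 fold change 0.17, adjusted p of 0.543 in edgeR). Both differences lay within 1 to 2 standard errors of 0 on the log2 scale. Sars2, the serine enzyme, and Pars2, the proline enzyme, were at 2.96 ± 0.023 and 2.65 ± 0.611 CPM in WT and at 3.52 ± 0.231 and 3.31 ± 0.167 CPM in Drp1KO libraries (SD, n = 3 each), both higher. In length-scaled counts both turned to log2 fold changes of -0.021 and -0.018, while Vars2 was at -0.087 and Tars2 at 0.083.

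Yars2, the mitochondrial tyrosine enzyme, had the log2 fold change nearest to 0 of its class, but its reads overlap those of the targeted gene. It was at 4.44, 4.57 and 3.51 CPM in WT and 3.95, 4.43 and 4.11 CPM in Drp1KO libraries, and the groups overlapped (standard error of the log2 fold change 0.208). Yars2 and Dnm1l lie on opposite strands of chromosome 16 with their 3′ ends over each other, and the exons of Yars2-201 and Dnm1l-201 overlap in 2 segments within chr16:16128677-16132287 (GRCm39). The overlap covers 3391 bases or 50.3% of Yars2-201, of which 214 lie in the Dnm1l coding sequence and 0 in that of Yars2. Dnm1l had 1294 to 2203 counts per library, and the strand setting of the quantification is not given in the sources used here, so reads of this stretch cannot be told apart and the Yars2 value is uncertain.

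**Figure D4:**
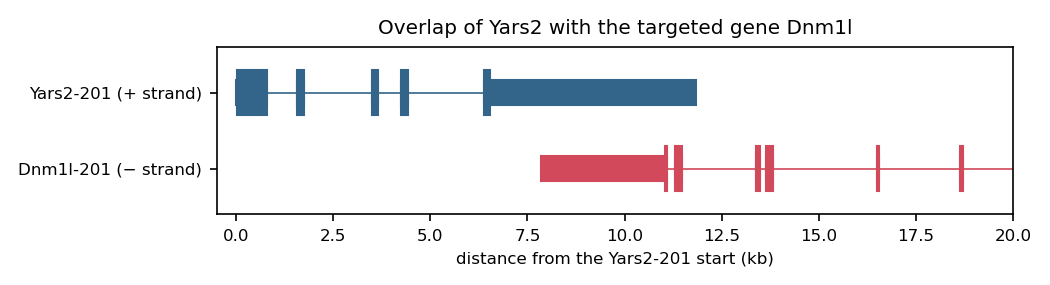
Exons of Yars2-201 and the overlapping end of Dnm1l-201 are drawn to scale by distance in kb from the Yars2-201 start, with tall boxes for coding sequence, low boxes for untranslated exon and lines for introns. The last exon of Yars2-201 runs across the last exons of Dnm1l-201 on the other strand, and the shared stretch is 3391 bases.

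Levels between genes were compared per length, as summed TPM (counts scaled to transcript length and library size). Cytosolic enzymes had a median of 32.7 TPM in WT libraries, from 7.30 for Tars3, a second cytosolic threonine enzyme, to 199 for Nars1. Mitochondrial enzymes had a median of 4.89 TPM, from 0.262 for the methionine enzyme Mars2 to 33.8 for Iars2. Summed over the class, the cytosolic level was 1047, 903 and 981 TPM in WT and 1009, 960 and 916 TPM in Drp1KO libraries. The mitochondrial sum was 138, 144 and 154 TPM in WT and 129, 142 and 146 TPM in Drp1KO libraries. The groups overlapped in both sums, and in the ratio of the sums, which was 6.74 ± 0.729 in WT and 6.96 ± 0.796 in Drp1KO (SD, n = 3 each). Library 1 held the highest ratio of both genotypes, at 7.58 in WT and 7.84 in Drp1KO.

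For 16 pairs of a cytosolic and a mitochondrial enzyme of the same amino acid, the cytosolic enzyme had the higher TPM in WT in 14, with a median ratio of 4.42. The ratio was largest for glutamate, at 210 for the fused glutamate and proline enzyme Eprs1 over Ears2. It was under 1 for isoleucine, at 0.601 for Iars1 over Iars2, and for Farsa over Fars2, at 0.388. Between genotypes, 2 of the 16 log2 CPM ratios did not overlap, those of Wars1 to Wars2 and Farsb to Fars2 given above. Both had an adjusted permutation p of 0.64. Of single genes 21.9% did not overlap, and no such share was counted for ratios of other genes.

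**Figure D5:**
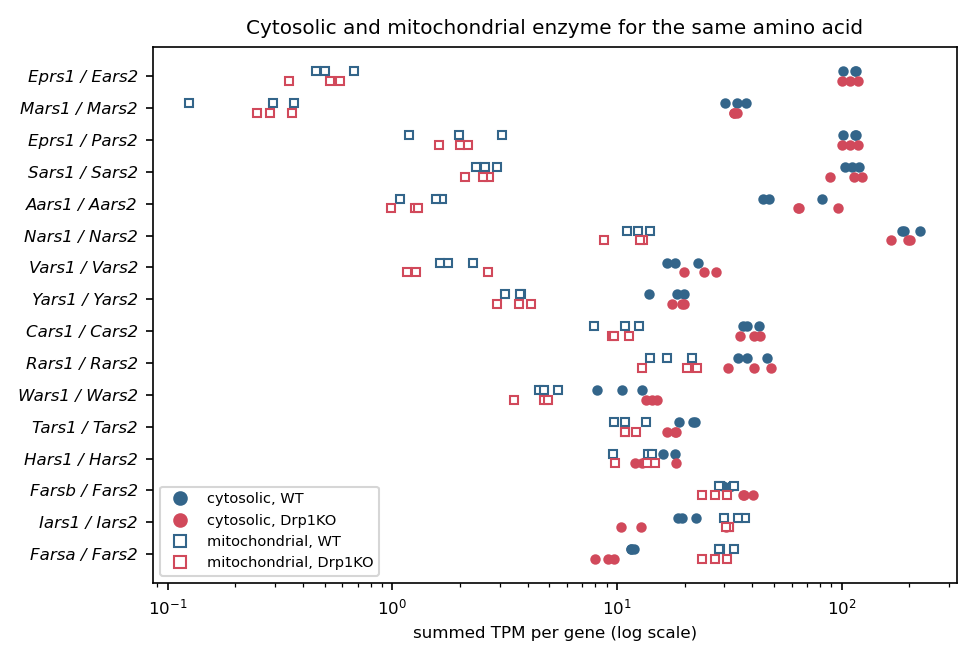
Summed TPM on a log axis is plotted for each cytosolic (filled circles) and mitochondrial (open squares) enzyme of the same amino acid in the 3 WT (blue) and 3 Drp1KO (red) libraries. The order runs from Eprs1 and Ears2, with a ratio of 210, to Farsa and Fars2, where the ratio is 0.388.

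Proteins that work beside the synthetases were counted from a list of 15 charging partners: complex scaffolds, mitochondrial amidotransferase subunits and formyltransferase, proofreading enzymes, the mitochondrial elongation factor Tufm and subunits of the exchange factor for elongation factor 1A. Of these, 9 were higher and 6 lower in Drp1KO, with a median log2 fold change of 0.07 and 0 past an adjusted p of 0.05 in edgeR, or 1 higher and 1 lower with the replicate block, in which 6.73% of all genes were called higher and 5.22% lower. The median lay between -0.019 and 0.10 with 1 library left out, so its direction turned on single libraries. At an unadjusted p under 0.05 were 2 of 15, beside 16.4% of all genes. Gatc, a subunit of the amidotransferase that makes glutaminyl-tRNA in mitochondria, had 13.2, 13.3 and 14.8 CPM in WT and 17.2, 19.8 and 17.0 CPM in Drp1KO libraries (log2 fold change 0.39, adjusted p of 0.129). Eef1d, a subunit of the exchange factor for elongation factor 1A, had 78.1, 69.4 and 64.5 CPM in WT and 61.5, 50.5 and 47.3 CPM in Drp1KO libraries (log2 fold change -0.41, adjusted p of 0.110). The groups did not overlap for either gene, as for 21.9% of all genes. With the replicate block, Gatc was the 1 partner called higher (adjusted p of 0.0380 in edgeR) and Eef1d the 1 called lower.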

How the data were processed

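RNA-seq libraries of 3 WT and 3 Drp1KO BMDM cultures after 8 h of HSS were analysed. Per the labels and methods, the authors quantified poly(A) libraries with kallisto (v0.46.1) on GRCm39 cDNA and deposited estimated counts, TPM and lengths per transcript, and the strand setting is not given in the sources used here. The labels name TRIzol and a stranded kit, the methods another extraction and an unstranded kit name.

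Of 116873 deposited transcripts, 116159 (99.4%) matched GENCODE vM39. Estimated counts were summed per gene and rounded, genes with at least 10 counts were kept, and Drp1KO was compared with WT in edgeR (v4.0.16, R v4.3.3; TMM scaling, quasi-likelihood test, Benjamini-Hochberg over all 18506 genes). CPM used TMM-scaled library sizes, and TPM was summed per gene. Exact permutation tests used scipy (v1.17.1). Reads shared by copies or overlapping genes are split by kallisto's estimate, and shared stretches of 31 bases were counted. Depth was 23389488 to 32231206 counts per library, and the least counted enzyme had 201 counts in all. On simulated counts for 18133 genes, 79% of 200 genes changed 2-fold were recovered, with 7 unchanged genes called.

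Same-numbered libraries had correlations of 0.54, 0.22 and 0.35 between their deviations from the group means over 12248 genes, so the numbers were taken as pairs, although WT library 2 and Drp1KO library 3 had a correlation of 0.34. The hint comes from the data and not from the labels, which give only shared replicate numbers. The members and lists were chosen with earlier results of these data known. Values in every library were given for enzymes past a log2 fold of 0.32 and an unadjusted p under 0.05, for Wars1, Kars1 and Gars1, and for the most abundant and the least changed enzyme of each class. Alternatives were median-of-ratios factors, library size only, DESeq2 (v1.42.0), filterByExpr, at least 1 count, length-scaled counts, the replicate block, each library left out and, added later, library 1 of both groups left out.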

Additional observations from a re-analysis of the deposited data

How the results depend on the processing

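Estimates for single enzymes carried a median standard error of 0.13 on the log2 scale for cytosolic and 0.16 for mitochondrial enzymes. Changes of that size or smaller could not be told from 0, and larger ones could also fail to pass. Farsb, at 0.31 with a standard error of 0.125, had an adjusted p of 0.243 in edgeR. The number of cytosolic enzymes past an adjusted p of 0.05 was 1, and it was 5 with the replicate block, 0 with length-scaled counts and 0 to 1 with 1 library left out. Without WT library 1 the enzyme called was Wars1, and without Drp1KO library 3 it was Iars1, in the lower direction, and not Wars1. Under the fold and unadjusted p criteria it was 2, and it was 1 with library size only, 1 with filterByExpr and 1 to 6 with 1 library left out, with 6 both without WT library 1 and without Drp1KO library 3. The mitochondrial counts were 0 under both criteria in all alternatives run. The cytosolic median lay between -0.015 and 0.25 and the mitochondrial median between 0.013 and 0.11 with 1 library left out. In length-scaled counts the cytosolic median was 0.062 and the mitochondrial median -0.021. Enzymes near no change crossed 0: with 1 library left out Kars1 lay between -0.11 and 0.083, Nars1 between -0.029 and 0.11, Iars2 between -0.049 and 0.16 and Yars2 between -0.13 and 0.054. In length-scaled counts the log2 fold change was -0.030 for Iars2, -0.018 for Pars2, -0.021 for Sars2 and 0.095 for Yars2. Yars2 was at 0.0076 with the replicate block and at 0.080 without library 1 of both groups. The replicate block changed no other call among the enzymes than those of Aars1, Farsb, Gars1 and Iars1 given above. The causes of these shifts were not tested.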

Other observations

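Of 58 synthetase transcripts from 24 enzymes with 10% to 90% of their gene's counts, 12 had shares that did not overlap between genotypes, where 22.6% of all such transcripts did not overlap. After these values were seen, 2 of them were picked out. Qars1-203, a coding transcript of the glutamine enzyme, held 32.4%, 25.7% and 20.9% of Qars1 counts in WT and 42.5%, 44.1% and 38.8% in Drp1KO libraries. Vars1-201, a coding transcript of the cytosolic valine enzyme, held 85.6%, 81.0% and 84.4% of Vars1 counts in WT and 77.8%, 71.0% and 67.2% in Drp1KO libraries. No test was made of these shares, which rest on how kallisto divides reads between overlapping transcripts.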
